A study of Mus musculus with 21 samples.

Results

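Of the 20900 genes in a table of log2 expression from mouse embryonic stem cells, 14 were lower by at least 1.2 log2 units after 8 h of BMH-21 and not lower by 0.4 or more after 4 h or 8 h of CX-5461. They are Trh, Klf12, Hddc3, Pou3f1, Dbn1, Arl4d, Tns2, Metrn, Klhl36, Krt17, Cbx2, Tk1, Ndrg3 and B930041F14Rik. They were selected on their measured values. Each library was centred on its median gene, so a level of 0 is that library's median. A gene was taken when its row mean in the table was at least 2, its 8 h BMH-21 mean was at least 1.2 below the control mean, and its means at 4 h and 8 h of CX-5461 were both above −0.4 relative to control. The row mean kept 11175 genes. Of these, 709 (6.34%) passed the BMH-21 limit. Among the 709, 119 (16.8%) passed the CX-5461 limit at 8 h, 51 (7.19%) passed it at 4 h, and 14 (1.97%) passed it at both times. All 14 passed the filter used for testing. Both limits cut through a continuous range of values. Just inside the BMH-21 limit were Tk1 at −1.22, Ndrg3 at −1.21 and B930041F14Rik at −1.21, and just outside it were Blvra at −1.19, AA465934 at −1.18 and Evc at −1.18. Nearest the CX-5461 limit on the inside were Ndrg3 at −0.39 at 8 h, Hddc3 at −0.36 at 4 h and Arl4d at −0.35 at 4 h. On the outside were Ccdc166 at −0.41 at 8 h, Fndc4 at −0.42 at 4 h and Usp13 at −0.43 at 4 h.

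The cells were E14, an established embryonic stem cell line of the 129 mouse strain, grown in serum and leukaemia inhibitory factor, plated the day before and given 1 µM of either compound. RNA was measured by poly(A) RNA-seq in 21 libraries, 3 in each of 7 groups. The groups are 1 control at 0 h, BMH-21 at 2, 4 and 8 h, and CX-5461 at 2, 4 and 8 h. Both inhibitors share the single 0 h control, so time in culture and inhibitor cannot be told apart in a comparison with control. Libraries held 46604397 to 62812641 reads. All 10 embryonic stem cell markers were detected in every library, and their summed RPM (reads scaled to library totals) was 6645 to 6690 in control, 3764 to 4231 at 8 h of BMH-21 and 5698 to 5780 at 8 h of CX-5461. Sums for 6 markers of fibroblasts or feeder cells were 27.9 to 28.8, 50.1 to 56.1 and 39.0 to 40.9 in the same groups. Reads per library were 370 to 2551 for Col1a1, 534 to 1093 for Thy1 and 41 to 105 for Col1a2. They were 3 to 23 for Dcn, 0 to 14 for Postn and 0 to 2 for Lum. From control to 8 h of BMH-21, Col1a1 went from −1.3 to 0.77 and Thy1 from 0.03 to −1.17. Sums for 6 markers of 2-cell-like cells were 8.54 to 9.26, 55.4 to 70.7 and 22.1 to 27.1 in the same groups. For 6 extraembryonic endoderm markers they were 10.1 to 11.1, 21.4 to 22.7 and 14.7 to 15.7, and for 6 trophectoderm markers 27.3 to 28.7, 37.3 to 41.8 and 43.5 to 47.0. The part of these shifts in the values of the 14 genes was not tested. In bulk RNA, fewer cells with a transcript and less transcript per cell cannot be told apart.

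RNA polymerase I transcribes the ribosomal RNA genes in the nucleolus. BMH-21 is a DNA intercalator that stops this polymerase and leads to loss of its large catalytic subunit. CX-5461 hinders initiation by the same polymerase and is also known to stabilise G-quadruplex DNA. The 14 genes form no single pathway. They code for regulators of transcription and chromatin, secreted proteins, cytoskeletal proteins, and enzymes or signalling proteins.

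Relative to control, the BMH-21 medians of the 14 genes were −0.17, −0.49 and −1.32 in order of time (2, 4 and 8 h). The same medians over the 11175 genes were −0.01, −0.1 and −0.26. With CX-5461 the 14 genes had medians of −0.08, −0.25 and −0.21, against −0.03, −0.16 and −0.17 over the 11175 genes. The control values, the 8 h BMH-21 values and both later CX-5461 values were used to select the genes. Every comparison of the 14 genes with control, at 2 h too, is therefore a description. The name "not falling with CX-5461" does not hold gene by gene. At 8 h of CX-5461, all 3 libraries lay below every control library for 9 of the 14 genes, where 47.1% of the 14666 tested genes did so. They lay above every control library for 3 genes, Trh, Krt17 and B930041F14Rik, where 30.9% of tested genes did so. At 4 h of CX-5461, 10 of the 14 lay wholly below control, against 47.7% of tested genes. At 2 h, 6 of the 14 did, against 27.1%. That the 8 h differences were larger with BMH-21 than with CX-5461 was set by the selection itself. The 4 genes that had a mean above control at 8 h of CX-5461 (Trh, Pou3f1, Krt17 and B930041F14Rik) had it on all 4 scalings tried. On the other 3 scalings the 8 h BMH-21 differences of the 14 genes ran from −2.42 to −1.03.

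**Figure D1:**
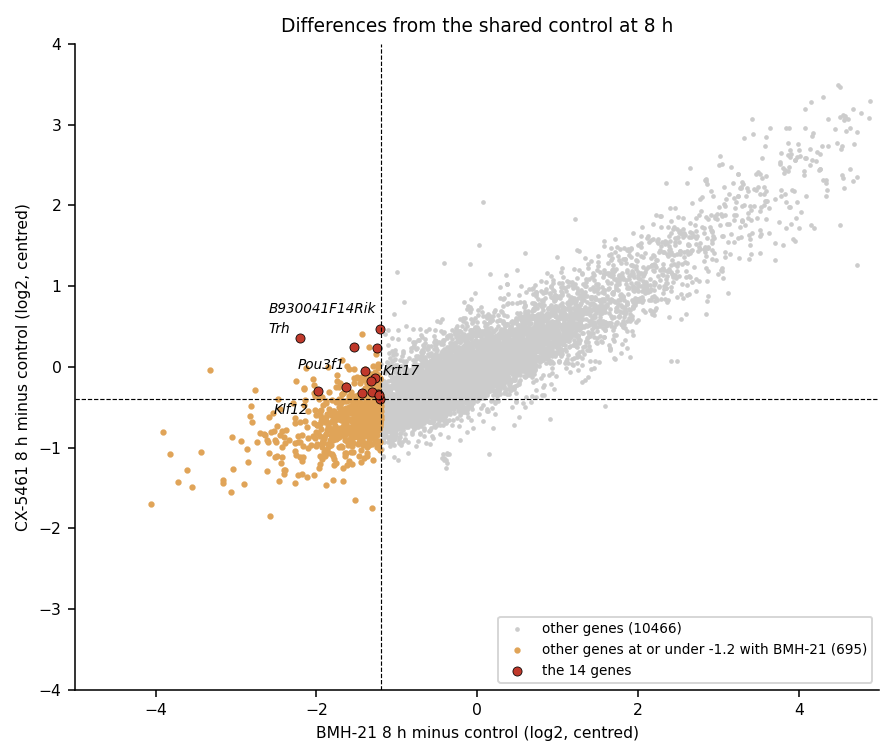
Difference from control at 8 h of BMH-21 (horizontal axis) and at 8 h of CX-5461 (vertical axis) for 11175 genes, in centred log2 units; 29 genes lie outside the axes. The dashed lines are the limits of −1.2 and −0.4, the 14 genes are red, and the other 695 genes under −1.2 with BMH-21 are orange; the axes share the control libraries, so the common slope is no measure of likeness.

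The regulators of transcription and chromatin were Pou3f1, Klf12 and Cbx2. Pou3f1 encodes a POU homeodomain factor, also called OCT6, of the primed pluripotent state and of early neural cells. It is a gene of 1 exon at chr4:124656807-124660655 on the plus strand (mm10, GENCODE M21). Its level was 0.66, 0.47 and 0.70 in the 3 control libraries. After 8 h of BMH-21 it was −0.96, −0.88 and −0.92, which is 34.6% of the control level. After 8 h of CX-5461 it was 0.93, 0.67 and 0.96. The BMH-21 libraries lay below all controls, and 2 of the 3 CX-5461 libraries lay above all controls. Pou3f1 was the gene with the largest early difference. It was already lower at 2 h with both compounds, by −0.78 (BMH-21) and −0.59 (CX-5461) relative to control. Its CX-5461 mean then stood at −0.05 relative to control at 4 h, while its BMH-21 mean stood at −0.95.

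Klf12, a Krüppel-like zinc finger factor, is the longest of the genes, at chr14:99870632-100284679 on the minus strand. Its control levels were −1.14, −1.18 and −1.18. At 4 h of BMH-21 the libraries read −1.40, −1.38 and −1.32, and at 8 h −3.08, −3.45 and −2.92. Nearly all of its difference thus arose between 4 h and 8 h, when the mean went from −0.20 to −1.98 relative to control. With CX-5461 at 8 h it read −1.40, −1.38 and −1.59, below every control library but well above the BMH-21 values. The reads behind Klf12 numbered 423 to 481 in control and 134 to 164 at 8 h of BMH-21.

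Cbx2 encodes a chromobox subunit of Polycomb repressive complex 1, which compacts chromatin at silenced developmental genes. It lies at chr11:119022962-119031270 on the plus strand. Control levels were 1.58, 1.46 and 1.61, and levels at 8 h of BMH-21 were 0.37, 0.30 and 0.31, or 42.6% of control. At 8 h of CX-5461 they were 1.15, 1.25 and 1.23. All 3 CX-5461 libraries were below the controls here, by −0.34 on average.

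Among secreted proteins, Trh encodes the precursor of thyrotropin-releasing hormone, a short peptide best known from the hypothalamus. It had the highest level and the lowest 8 h BMH-21 difference of the 14. Scaled to the summed length of all annotated exons and to library size (RPKM, computed from the recovered reads), its control level was 285, where Tk1, the next highest, had 19.2. It lies at chr6:92242061-92244650 on the minus strand. Trh read 4.39, 4.25 and 4.48 in control, 3.77, 3.71 and 3.81 at 4 h of BMH-21, and 2.28, 2.15 and 2.07 at 8 h. That is 65.5% and then 21.7% of the control level. With CX-5461 it read 4.06, 4.03 and 4.03 at 4 h and 4.70, 4.71 and 4.76 at 8 h. The CX-5461 libraries were thus below all controls at 4 h and above all controls at 8 h, at 127.6% of the control level. The 250 bases before its start are shown because Trh had the lowest 8 h value. They span chr6:92244651-92244900 on the minus strand (RefSeq, GRCm38.p6), and capitals mark a GC box, GGGCGG.
Trh: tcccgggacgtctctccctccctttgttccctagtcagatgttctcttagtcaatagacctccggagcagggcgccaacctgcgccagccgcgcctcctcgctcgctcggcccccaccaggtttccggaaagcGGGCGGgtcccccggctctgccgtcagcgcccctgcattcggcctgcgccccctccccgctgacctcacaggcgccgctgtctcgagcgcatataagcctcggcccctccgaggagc

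Metrn encodes meteorin, a secreted factor that acts on glial and nerve cells, at chr17:25793221-25797136 on the minus strand. Its control levels were −0.29, −0.16 and −0.20. At 8 h of BMH-21 they were −1.57, −1.42 and −1.58, or 40.4% of control, and at 8 h of CX-5461 −0.45, −0.62 and −0.51. Both groups lay below the controls, and the BMH-21 difference of −1.31 was the larger beside −0.31.

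Of the cytoskeletal genes, Dbn1 encodes drebrin, an actin-binding protein of dendritic spines and cell junctions, at chr13:55473429-55488111 on the minus strand. It read 0.35, 0.43 and 0.50 in control, −0.98, −0.96 and −1.09 at 8 h of BMH-21, and 0.05, 0.08 and 0.17 at 8 h of CX-5461. At 2 h BMH-21 differed from control by 0.04 and CX-5461 by 0.03, and both groups overlapped the controls. Tns2 encodes a tensin, a focal adhesion protein that ties integrins to actin, at chr15:102100413-102116401 on the plus strand. It read −0.71, −0.71 and −0.65 in control, −1.85, −2.12 and −2.08 at 8 h of BMH-21, and −0.84, −0.83 and −0.92 at 8 h of CX-5461. Unlike Dbn1 it was below every control library from 2 h of BMH-21, at −0.40 relative to control. Krt17 encodes a type I keratin of epithelial intermediate filaments, at chr11:100256217-100261029 on the minus strand. It read −0.28, −0.14 and −0.36 in control, −1.48, −1.42 and −1.63 at 8 h of BMH-21, and −0.02, −0.04 and −0.04 at 8 h of CX-5461. At 4 h it was −0.31 relative to control with either compound, and the libraries of the inhibitors overlapped at 2 h and 4 h.

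Among enzymes and signalling proteins, Arl4d encodes a small GTPase of the ARF-like family, at chr11:101665541-101667832 on the plus strand. It was the only one of the 14 whose libraries all lay above the controls at any time of BMH-21. Control levels were −0.49, −0.51 and −0.37, and at 2 h of BMH-21 they were −0.09, −0.18 and −0.18. They then read −1.0, −1.11 and −0.85 at 4 h and −2.02, −1.72 and −1.81 at 8 h. With CX-5461 the levels were −0.70, −0.68 and −0.72 at 2 h and −0.48, −0.55 and −0.50 at 8 h. At 2 h the order of the inhibitors was therefore the reverse of that at 8 h. The bases upstream of Arl4d are shown because it had the largest differences in both comparisons of libraries that entered the selection only through the row mean. They span chr11:101665291-101665540 on the plus strand (RefSeq, GRCm38.p6). Capitals mark ATTGG, which is a CCAAT box on the other strand at position −42, and the cyclic AMP response element TGACGTCA at position −26, both counted from the start.
Arl4d: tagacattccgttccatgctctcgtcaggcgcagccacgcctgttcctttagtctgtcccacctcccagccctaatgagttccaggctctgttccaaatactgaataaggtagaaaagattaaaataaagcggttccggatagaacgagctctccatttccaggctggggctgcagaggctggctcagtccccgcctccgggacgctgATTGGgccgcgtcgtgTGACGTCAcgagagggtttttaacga

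Hddc3, an HD-domain hydrolase also known as MESH1, had, with Pou3f1, the lowest 4 h BMH-21 values relative to control. It lies at chr7:80343104-80350547 on the plus strand. Its control levels were −1.84, −1.81 and −1.72, and with BMH-21 its means were −0.58, −0.97 and −1.63 relative to control at 2, 4 and 8 h. The 8 h libraries read −3.56, −3.24 and −3.45, from 100 to 155 reads. At 8 h of CX-5461 it read −1.97, −2.0 and −2.14. The Hddc3 gene overlaps Man2a2 on the opposite strand, which had a difference of −0.25 at 8 h of BMH-21. Tk1 encodes the thymidine kinase that cells make for S phase. It lies at chr11:117815526-117826092 on the minus strand. Tk1 read 2.38, 2.41 and 2.39 in control, 1.14, 1.28 and 1.11 at 8 h of BMH-21, and 2.06, 2.06 and 2.02 at 8 h of CX-5461. It overlaps Afmid on the opposite strand, which stood at 0.35 at 8 h of BMH-21. Whether the authors' counting used strand is not given in the sources used here, so reads in such overlaps are uncertain.

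Klhl36 belongs to the Kelch-like adaptors of cullin ubiquitin ligases and lies at chr8:119862266-119876995 on the plus strand. It read −1.95, −1.92 and −2.0 in control, −3.0, −3.20 and −3.48 at 8 h of BMH-21, and −2.16, −2.09 and −2.04 at 8 h of CX-5461. Ndrg3, of the N-myc downstream regulated family, lies at chr2:156927345-156992056 on the minus strand. It read 0.39, 0.30 and 0.44 in control, −0.76, −0.82 and −0.93 at 8 h of BMH-21, and 0.01, −0.06 and 0.01 at 8 h of CX-5461. Ndrg3 is thus the gene closest to the CX-5461 limit. B930041F14Rik is the older symbol of Fndc10 in RefSeq, at chr4:155694342-155696485 (GRCm38.p6), and its role is not described here. It read −1.01, −0.91 and −0.92 in control, −2.16, −1.94 and −2.36 at 8 h of BMH-21, and −0.48, −0.48 and −0.46 at 8 h of CX-5461. The 2 inhibitors stood on opposite sides of the control libraries, with means of 43.3% and 138.4% of the control level.

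**Figure D2:**
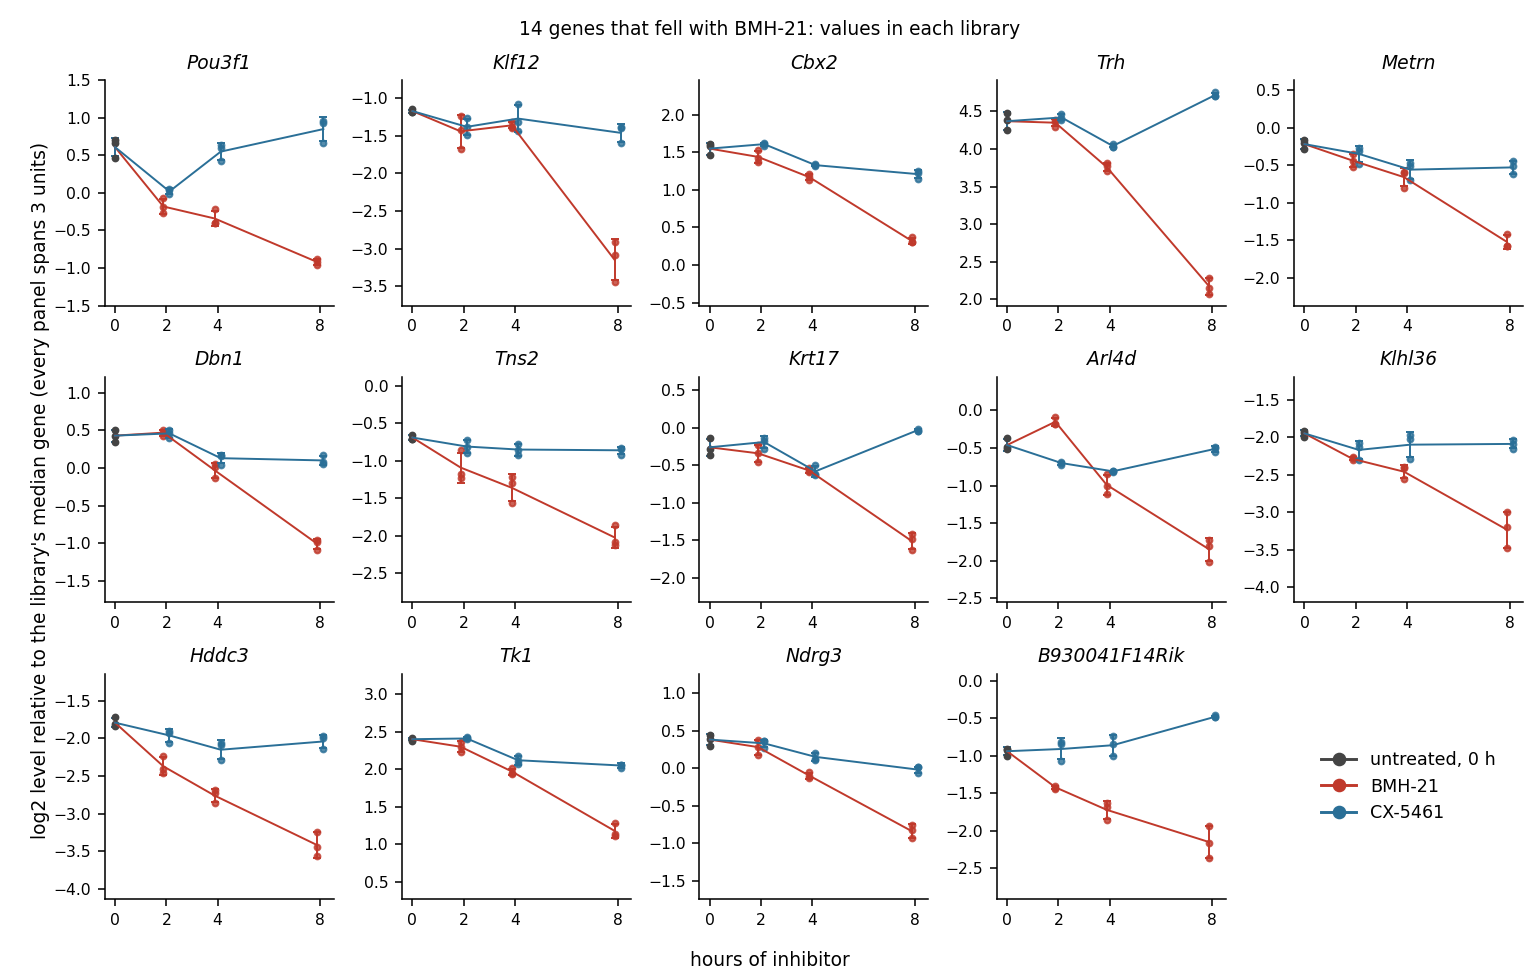
Level of each of the 14 genes in every library (points) against hours of inhibitor, in log2 relative to the library's median gene; lines join group means, bars are SDs of 3 libraries, and every panel spans 3 units. BMH-21 (red) ends below control in all panels, while CX-5461 (blue) ends above control in Trh, Pou3f1, Krt17 and B930041F14Rik.

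The libraries of 2 h and 4 h BMH-21 and of 2 h CX-5461 entered the selection only through the row mean over all 21 libraries and not through a difference between groups, and 2 comparisons among them were tested. The question of the first was whether the levels were still moving between 2 h and 4 h of BMH-21. With limma's linear model and Benjamini-Hochberg adjustment over 14666 genes, 11 of the 14 genes fell from 2 h to 4 h and 0 rose, with 12 at an unadjusted p under 0.05. Over all tested genes, 39.3% were lower and 29% were higher in that comparison. No untreated cells were measured at 2 h or 4 h, so time in culture and BMH-21 cannot be told apart here. With CX-5461 the medians of the 14 genes were −0.08 at 2 h and −0.25 at 4 h relative to control. The 4 h CX-5461 values were used in the selection. Arl4d fell most, by −0.83 (SE 0.07, adjusted p = 3e-10), followed by Trh with −0.59 (SE 0.05, adjusted p = 6.4e-10) and Dbn1 with −0.50 (SE 0.06, adjusted p = 6.2e-08). Hddc3 and Ndrg3 each fell by 0.38 on the log2 scale. Tk1 followed with −0.32, B930041F14Rik with −0.30, Cbx2 and Tns2 with −0.27 each, Krt17 with −0.23 and Metrn with −0.22. The call was missed by Klf12, whose difference was 0.08 (95% confidence interval −0.16 to 0.32), by Pou3f1 with −0.17 (−0.33 to −0.01, adjusted p = 0.059), and by Klhl36 with −0.17 (−0.39 to 0.05). Of the 14, Klf12 had the smallest difference from control at 4 h and Pou3f1 the largest at 2 h. The call for Tns2 was lost without replicate 3 of 2 h BMH-21 (−0.15) or replicate 1 of 4 h (−0.17), and that for Metrn without replicate 1 of 2 h (−0.18) or replicate 2 of 4 h (−0.15).

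The selection used the control libraries, so comparisons of the 14 genes with control are a description. All 14 genes had their 4 h BMH-21 libraries below every control library, where 42.2% of tested genes did. The other 695 genes under the BMH-21 limit had moved further by that time. Their median was −0.84 at 4 h and −1.48 at 8 h relative to control, beside −0.49 and −1.32 for the 14. Of their 8 h difference, the median share present at 4 h was 52.3%, and for the 14 genes it was 36.3%. From 2 h to 4 h, 688 of the 695 (99.0%) fell by the same test, with a median of −0.68 where the 14 genes had −0.28. No test of the difference between these sets was made. Their CX-5461 medians were −0.78 at 4 h and −0.67 at 8 h, which the selection itself sets apart from the 14.

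The second comparison asked whether BMH-21 and CX-5461, at the same dose and time, already differed at 2 h. Of the 14 genes, 4 were lower with BMH-21, 1 was higher and 9 did not pass the test. The shares over all tested genes were 7.58% lower and 7.83% higher, and 1.52% and 2.47% on the deposited values, 9.58% and 5.48% with median-ratio factors. Of the 14 genes, 1 was lower on the deposited values and 6 with median-ratio factors. B930041F14Rik differed by −0.51 (SE 0.09, adjusted p = 0.00033), with BMH-21 libraries at −1.43, −1.44 and −1.40 and CX-5461 libraries at −0.82, −0.85 and −1.07. Hddc3 differed by −0.41 (SE 0.10, adjusted p = 0.0055; 0.21 on the deposited values). In both genes every BMH-21 library was below every CX-5461 library. Cbx2 differed by −0.16 (adjusted p = 0.016) and Tns2 by −0.28 (adjusted p = 0.046), and the Tns2 libraries overlapped. The Tns2 call was lost in 11 of 18 alternatives and the Cbx2 call in 4. Arl4d went the other way, by 0.55 (SE 0.07, adjusted p = 7.4e-06), with no overlap. Unadjusted, 8 of the 14 had a p under 0.05, and 12 had a value below 0.

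For the 9 genes without a call at 2 h, the intervals bound the difference. Dbn1 was at 0.01 (95% confidence interval −0.11 to 0.13), Ndrg3 at −0.05 (−0.16 to 0.07), Trh at −0.07 (−0.18 to 0.04) and Metrn at −0.09 (−0.25 to 0.07). For these 4 genes a difference beyond 0.25 lay outside the interval. Klf12 at −0.07 (−0.31 to 0.18), Klhl36 at −0.12 (−0.34 to 0.10), Pou3f1 at −0.20 (−0.36 to −0.04), Krt17 at −0.15 (−0.29 to −0.01) and Tk1 at −0.12 (−0.21 to −0.03) had no call after adjustment. The last 3 of these had intervals below 0 before adjustment. At 4 h, which the selection used in part and which is given as a description, BMH-21 was below CX-5461 without overlap in 10 of the 14, where 21.6% of tested genes were, with the lowest differences in Pou3f1 at −0.90 and B930041F14Rik at −0.86. At 8 h the difference ran from −2.56 in Trh to −0.82.

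**Figure D3:**
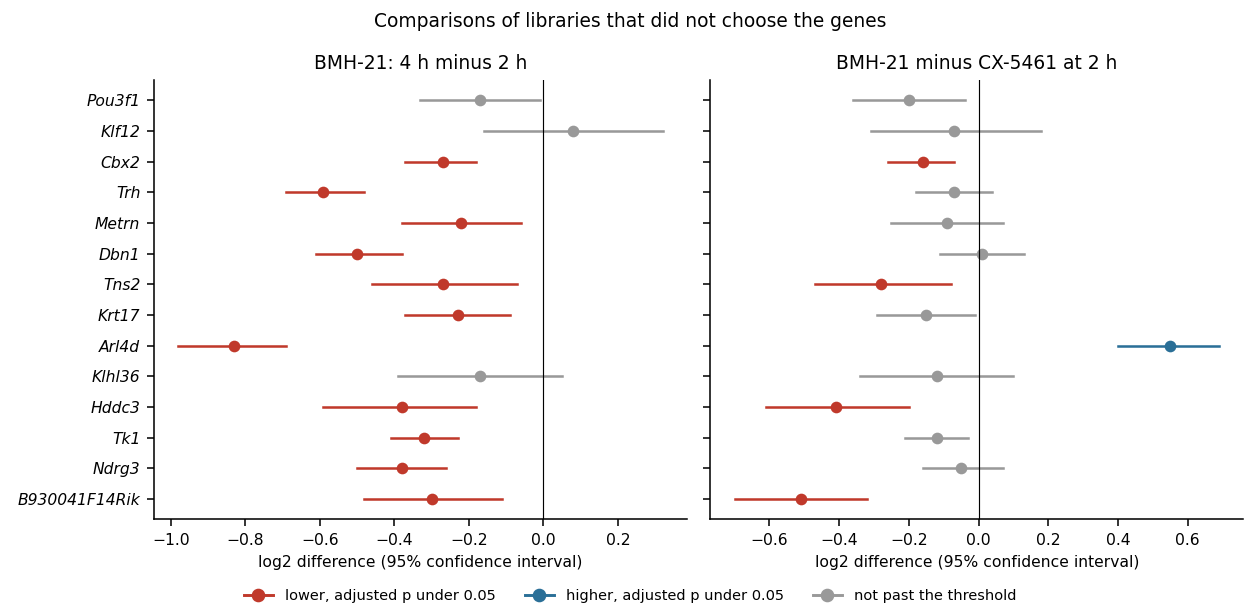
Log2 difference with its 95% confidence interval for each of the 14 genes between 4 h and 2 h of BMH-21 (left) and between BMH-21 and CX-5461 at 2 h (right), from limma over 21 libraries. On the left 11 genes are lower at 4 h; on the right 4 are lower and Arl4d is higher with BMH-21.

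The relatives of 12 of the genes were tested at 8 h against control, leaving out the 14 themselves; no list held Trh or B930041F14Rik. Over all 14666 genes, 51.3% were lower and 33.3% higher at 8 h of BMH-21, and 44.7% and 29.3% at 8 h of CX-5461. These shares depend on the scaling. On the deposited values BMH-21 gave 56.9% and 24.5%, and CX-5461 gave 14.3% and 35.1%. The same 4 shares were, with median-ratio factors, 43.3%, 39.2%, 35.3% and 35.2%. The 2 contrasts share control libraries and are given side by side. Outside the 14, a gene at −1.2 or under with BMH-21 had missed the row mean or a CX-5461 limit. Lower CX-5461 values than the 14 in such relatives, at 4 h or 8 h, therefore follow from the selection. Factors of the formative and primed pluripotent states, the list that holds Pou3f1, fell together with BMH-21. Of the others, 16 of 16 were lower on each of the 4 scalings, with a median of −1.71 here, beside a median of −0.19 over all tested genes. With CX-5461, 15 of 16 were lower at a median of −0.62, beside −0.11 over all tested genes; on the deposited scaling 9 were lower and 1 higher, and after quantile normalization 11 and 2. Foxd3, a forkhead factor of early embryonic stem cells, was lower by −3.91 with the first compound and −0.80 with the second, and Zic5, a zinc finger factor, by −2.50 and −0.93. Fgf5, a growth factor that marks the primed state, stood at −2.45 for BMH-21 and at 0.42 for CX-5461, the latter short of the threshold (adjusted p = 0.07), on 66 to 82 control reads. Its value at 4 h of CX-5461 was −0.82, below the selection limit. With 16 to 20 reads at 8 h of BMH-21, its deposited values in control and at 8 h were also below 2, the limit on the row mean. The list of naive pluripotency factors, which holds none of the 14, was lower as well on the centred values. With BMH-21, 17 of its 18 genes were lower and 1 was higher, at a median of −1.4. With CX-5461, 17 were lower and 0 higher, at a median of −0.57.

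The Polycomb list that holds Cbx2 had 23 of 30 other members lower and 3 higher with BMH-21 (median −0.52), and 22 lower and 3 higher with CX-5461 (median −0.29). On the deposited scaling the CX-5461 counts were 8 and 4. Pcgf2, a ring finger subunit of Polycomb repressive complex 1, was lower by −1.88 with the first compound and −0.69 with the second, and Jarid2, a partner of Polycomb repressive complex 2, by −1.55 and −0.65. Pcgf3 and Phc2, subunits of variant and canonical forms of complex 1, were higher with BMH-21, by 1.39 and 1.36. Of the other 7 chromobox genes, 6 were lower at 8 h of BMH-21 and 5 at 8 h of CX-5461 (3 on the deposited scaling). The lowest were the heterochromatin proteins Cbx3 at −1.76 and Cbx1 at −1.64 with BMH-21, and these were also lower with CX-5461, by −0.73 and −0.84.

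Relatives in the KLF, POU and keratin families went in both directions. Of 15 other KLF genes, 10 were lower and 5 higher with BMH-21, and 9 were lower and 3 higher with CX-5461 (4 and 3 on the deposited scaling, 7 and 5 after quantile normalization). Klf8 was at −2.15 and Klf15 at −1.90 with BMH-21, next to −1.98 for Klf12, and with CX-5461 they were at −0.68 and −1.05. The selection itself sets Klf12 apart from them with CX-5461. The highest were Klf14, at 2.06 with 13 to 16 control reads, and Klf6, at 0.99. Of 9 other POU genes, 6 were lower and 3 higher with BMH-21, and 5 were lower and 3 higher with CX-5461 (2 and 3 on the deposited scaling, 6 and 2 after quantile normalization). BMH-21 gave the lowest values in Pou4f2, at −2.61, and Pou2f3, at −1.92, where CX-5461 gave −0.57 and −1.09. The highest were neural POU factors with few control reads, Pou4f3 (15 to 26 reads, then 504 to 601 at 8 h of BMH-21) and Pou3f3 (6 to 13, then 215 to 272). Among 18 other keratins only 5 were lower and 11 were higher with BMH-21 (median 1.74), and 1 was lower and 11 were higher with CX-5461 (median 1.23; 5 and 11 after quantile normalization). Krt5 and Krt15, keratins of basal epithelia, had the highest values. Krt5 went from 10 to 18 reads in control to 8086 to 11441 at 8 h of BMH-21, and Krt15 from 12 to 35 reads to 3763 to 5758. Krt17 at 8 h of BMH-21 was on the other side of control from most of its family, a side that the selection set for Krt17. Krt17 had 744 to 932 control reads. Krt42, its nearest neighbour on the chromosome, was lower with both inhibitors, at −1.63 and −0.60. The other keratins with at least 506 reads in every control library were Krt8, Krt18 and Krt19. With BMH-21 they stood at −0.08 (short of the threshold), −0.53 and 1.27.

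For Tk1, 36 other genes of DNA replication and nucleotide synthesis were tested. With BMH-21 35 were lower and 1 was higher, with a median of −0.60. With CX-5461 34 were lower and 1 was higher, with a median of −0.37 (14 and 1 on the deposited scaling, 16 and 6 after quantile normalization). Dctd, a deaminase of deoxycytidylate, was at −1.46 and Pold1, a DNA polymerase subunit, at −1.28 with BMH-21, both below the −1.22 of Tk1. With CX-5461 they were at −0.65 and −0.61, and the selection itself sets Tk1 apart from them there. Rrm2, the small subunit of ribonucleotide reductase, was higher with BMH-21, by 0.18, and lower with CX-5461, by −0.13, but both signs turned on the deposited scaling (−0.03 and 0.08). Tk2, the mitochondrial thymidine kinase, was higher with both, by 0.58 and 0.19.

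Kelch-like, NDRG, tensin and ARL4 relatives went in both directions, while Dbn1, Metrn and Hddc3 had 1 other tested relative each. Of 25 other Kelch-like genes, 10 were lower and 13 higher with BMH-21, and 8 lower and 12 higher with CX-5461 (7 and 14, and 4 and 12, with median-ratio factors; 2 and 12 with CX-5461 on the deposited scaling). Klhl23 resembled Klhl36 at 8 h, with −1.19 for BMH-21 and 0.06 for CX-5461 (−0.22 after quantile normalization), but was at −0.69 at 4 h of CX-5461. The highest of them was Klhl30, with 1 to 7 reads in control and 1086 to 1445 at 8 h of BMH-21. In the NDRG family Ndrg2 was lower with BMH-21 (−1.06) and CX-5461 (−0.54), and Ndrg4 was higher with both (0.53 and 0.63). Ndrg1 was lower with BMH-21 (−0.36) and at 0.01 with CX-5461 (−0.08 after quantile normalization), which followed −1.31 at 4 h of CX-5461. Tns3 was lower with BMH-21 by −0.57 and Tns1 higher by 2.14, while Tns4, at 0.20, did not pass the test (−0.22 after quantile normalization). Arl4a was lower by −0.36 and Arl4c higher by 1.10. Metrnl, the relative of Metrn, was higher with either inhibitor, by 2.73 for BMH-21 and 1.62 for CX-5461. Hddc2 was lower by −0.87 and −0.56, and Dbnl was at 0.07 with BMH-21, short of the threshold (−0.14 on the deposited scaling).

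**Figure D4:**
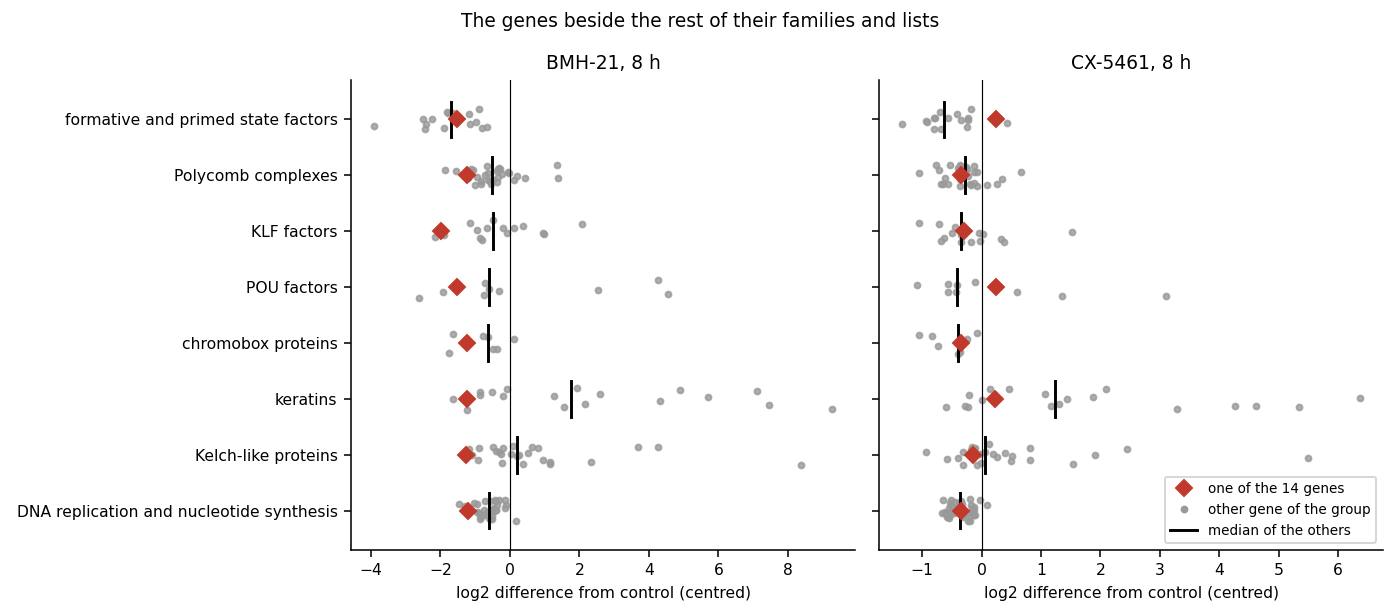
Log2 difference from control at 8 h of BMH-21 (left) and CX-5461 (right) for 8 lists or families: grey points are the other tested genes, black bars their median, and red diamonds the genes of the 14. Pou3f1 is at −1.53 with BMH-21 (list median −1.71) and at 0.24 with CX-5461 (list median −0.62), and Krt17 lies far from the keratin median of 1.74. The selection placed the red diamonds at or under −1.2 on the left and above −0.4 on the right, so their distances from the medians are a description.

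Most of the genes that could be matched to an annotation were compact and rich in GC. In GENCODE M21, to which 13 were matched, their median length with introns was 8309 bases, where the 10775 matched genes with a row mean of at least 2 had 24226 and the 668 matched others under the BMH-21 limit had 21746.5. Only Klf12 and Ndrg3 exceeded the general median. Exons of the longest transcript numbered 5 at the median, beside 8, and 3 of the 13 exceeded 8. The GC content of that transcript was 57.6% at the median, beside 49.9% over the 10775 genes and 50.9% in the 668, and it exceeded the general median in 11 of 13, with Pou3f1 highest at 63.9%. Per length, control levels spanned an RPKM of 1.21 in Klf12 to 285 in Trh, so the genes shared no level of expression. These properties are a description of 13 selected genes, with no test.

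**Figure D5:**
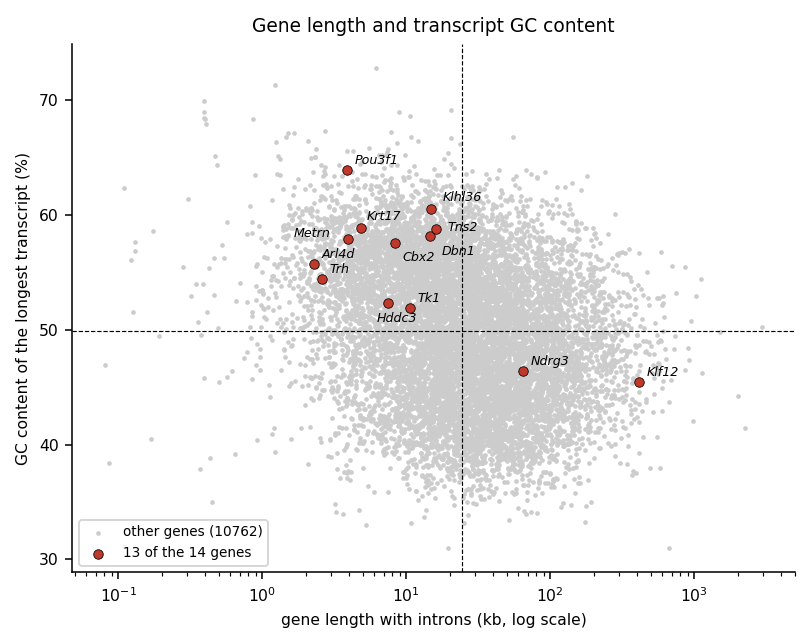
Gene length with introns (kb, log axis) and GC content of the longest transcript (%) for 10775 genes, with 13 of the 14 genes in red and dashed lines at the medians. All but Klf12 and Ndrg3 lie in the quadrant of short genes with GC above the median.

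Of the 13, 4 lie on chromosome 11 (Arl4d, Krt17, Cbx2 and Tk1), which holds 8.81% of the matched genes, and their nearest genes with a row mean of at least 2 mostly had small differences. Krt42, 1853 bases from Krt17, had the largest, and the other nearest genes ran from −0.69 to 0.43 at 8 h of BMH-21. Prr7, 275 bases from Dbn1, had 0.01 at 8 h of BMH-21. Spryd3, 127 bases from Tns2, had −0.29, and Fam173a, 320 bases from Metrn, had −0.21.

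RefSeq promoter sequences of 250 bases before the start were found for 10 of the 14 genes, 11 sequences in all, as Ndrg3 has 2. Searched on both strands, GGGCGG was in 6 of the 11 and in 59.4% of 10947 promoters of the genes with a row mean of at least 2. CCAAT was in 2 and in 35.8%, TATAAA in 1 (Klf12) and in 6.0%, CACGTG in 0 and in 8.6%, and TGACGTCA in 1 (Arl4d) and in 2.7%. The Klf12 window, chr14:100149797-100150046, lies before a RefSeq start inside the GENCODE gene span, and its TATAAA is on the other strand at −191. The window of Tns2 and a window of Ndrg3 also lie inside the gene spans. The E2F motifs TTTCCCGC and TTTGGCGC were in 0, beside 1.7% and 0.8%, and the former can share letters with GGGCGG. A G-quadruplex pattern, 4 runs of at least 3 G spaced by 1 to 7 bases, was in 1 (Dbn1), beside 25.1%. Median promoter GC was 63.6%, beside 60.4%. These matches describe letters in the windows and no site or cause.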

How the data were processed

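Log2 expression values of 20900 genes in 21 libraries were deposited by the authors in a table whose name says voom. The submitters' processing notes name Trim Galore 0.5.0, TopHat2 2.1.1, R 4.0.5, limma 3.46.0, edgeR 3.32.1, DESeq2 1.30.1 and the build mm10, without their roles. The counting program and annotation are not given in the sources used here. Every value returned a whole number of reads to within 1.7e-08 when the smallest was taken as 0 reads plus an offset of 0.5. The scaling factors in the deposited values ran from 0.832 to 1.375 and median-ratio factors from 0.941 to 1.107, so each library was centred on its median over the 14666 genes above 0 in at least 3 libraries. The median difference from control over these genes was −0.40 at 8 h of BMH-21 and 0.11 at 8 h of CX-5461 on the deposited scale, and −0.19 and −0.11 after centring.

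Comparisons used limma 3.58.1 in R 4.3.3 with 1 mean per group over 21 libraries, eBayes with a trend and Benjamini-Hochberg adjustment over 14666 genes at 0.05, two-sided. The code was run on simulated data with few changed genes, balanced between directions. Many more genes were called in the measured data, so the simulation does not test the choice of scaling. Figures were drawn with matplotlib 3.10.9 in Python 3.11.15. Nothing in the labels says that replicates came from separate cultures, so p-values measure the spread between these libraries. The lowest read number behind a group value of the 14 genes was 100, and counting error is largest there. The genes and lists were chosen with earlier results of these data known. The families and the replication list were added once the 14 genes were known. Members were named by lowest and highest values, which took all 14, and list genes were taken from the 2 lowest and 2 highest at 8 h of BMH-21. Ndrg1, Ndrg2, Ndrg4, Tns1, Tns3, Tns4, Arl4a, Arl4c, Metrnl, Hddc2, Tk2, Dbnl, Fgf5, Krt8, Krt18, Krt19 and the neighbouring genes were named after their values were seen. Alternatives covered scaling, offset, filters, limits, variance model, replicate block and left-out replicates. B930041F14Rik was not matched in GENCODE M21, and 4 genes had no promoter sequence.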

Additional observations from a re-analysis of the deposited data

Results flagged for a closer look

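Both compounds were applied at the same dose for the same time, and 5 of the 14 genes differed between them at 2 h by limma's test of the difference itself, 4 lower and 1 higher with BMH-21. Over all tested genes 7.58% were lower and 7.83% higher. On the deposited values 1 of the 14 was lower and 1 higher. BMH-21 minus CX-5461 was −0.51 for B930041F14Rik, −0.41 for Hddc3, −0.28 for Tns2 and −0.16 for Cbx2, all lower with BMH-21. It was 0.55 for Arl4d, higher with BMH-21 in 3 of 3 libraries. For B930041F14Rik and Arl4d the call held in all 18 alternatives. Hddc3 lost it in 1, Cbx2 in 4 and Tns2 in 11 of 18.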

How the results depend on the processing

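Which genes the rule selects depends on scaling and limits. In place of 14 genes it took 35 on the deposited values (7 of the 14 among them), 27 after quantile normalization (8 among them) and 15 with median-ratio factors (6 among them). It took 27 with a row mean of at least 0, 42 with a BMH-21 limit of −1, 4 with −1.5, and 4 with a CX-5461 limit of −0.2. Leaving out 1 replicate gave 9 (without replicate 3 of 8 h BMH-21) to 18 genes (without replicate 2), and Trh, Klf12, Pou3f1, Dbn1, Arl4d, Tns2 and Metrn were selected in 12 of 12 such runs. Pou3f1 was selected on all 3 other scalings and Tk1 on 0 of them. Over all alternatives, 10 to 12 of the 14 genes fell from 2 h to 4 h of BMH-21. The count lower with BMH-21 than CX-5461 at 2 h, 4 here, was 1 on the deposited values, and 6 with median-ratio factors or with only the groups compared. It was 2 to 4 without 1 replicate, and 2 without replicate 2 of 2 h BMH-21 or replicate 1 of 2 h CX-5461. Genes of the pathway lists outside the 14 that were lower at 8 h of BMH-21 numbered 312, and 283 to 331 over the alternatives. Over all tested genes 51.3% were lower there. How many list genes were tested is not given here, so the count shows only how far it moved with processing. Small differences without a call changed sign: for Klf12 between inhibitors to 0.01 and for Ndrg3 to 0.03 on the deposited values, for Klf12 between times to −0.05 and for Dbn1 between inhibitors to 0 after quantile normalization, and for Dbn1 to −0.02 with median-ratio factors. Without 1 replicate they ran from −0.04 to 0.18 for Klf12 between times, and between inhibitors from −0.17 to 0.05 for Klf12, −0.03 to 0.03 for Dbn1 and −0.1 to 0 for Ndrg3. The cause was not tested.

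With the replicate number as a replicate block, 12 genes fell from 2 h to 4 h (Pou3f1 was added), 3 were lower and 1 was higher at 2 h (Tns2 was lost), and 312 list genes were lower. Deviations of same-numbered libraries correlated at −0.25 to 0.11 (median 0.0 over 63 pairs). Those of libraries with other numbers correlated at −0.26 to 0.38 (median 0.01 over 126 pairs). No sign of pairing by number was seen, and these values cannot show whether libraries shared a culture or batch.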
